A study of Mus musculus with 36 samples.

Results

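The 9 genes described here encode the protease matriptase (St14), its inhibitors (Spint1 and Spint2), the protease prostasin (Prss8), the splicing regulators Esrp1 and Esrp2, and the transcription factors Grhl2, Grhl3 and Ovol1. They were chosen by name, through an exact match of the gene symbol, and all 9 of 9 were found among the 20325 mouse genes listed for each of 36 RNA-seq libraries. The choice was made with earlier results of these data known. Shares of all genes given beside counts of the members are therefore descriptions. Their levels were followed as fibroblasts were reprogrammed to pluripotent cells with or without an inhibitor of the histone methyltransferase DOT1L.

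Matriptase is a membrane-anchored serine protease of epithelial cells that activates substrates such as prostasin, the precursor of hepatocyte growth factor and a protease-activated receptor (F2rl1). The Spint1 and Spint2 products are membrane-anchored Kunitz-type inhibitors that hold matriptase activity in check and are needed for epithelial integrity. Esrp1 and Esrp2 set the epithelial pattern of alternative splicing, while the grainyhead-like factors and Ovol1 maintain epithelial gene expression and oppose mesenchymal programs. Fibroblasts pass through a mesenchymal-to-epithelial transition early in reprogramming, during which E-cadherin (Cdh1) and other junction genes are switched on.

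Mouse embryonic fibroblasts (MEFs) of stage E13.5 were homozygous for a doxycycline-inducible Oct4, Klf4, Sox2 and c-Myc cassette at Col1a1 and heterozygous for the reverse tetracycline transactivator at Rosa26, and the labels name no strain for them. In the timecourse, 7 groups were sequenced: uninduced MEFs, cells after 2 days of doxycycline with the vehicle DMSO or with the DOT1L inhibitor SGC0946, and cells after 4 days of doxycycline with DMSO throughout, SGC0946 on days 0 to 2 only (early window), on days 2 to 4 only (mid window) or throughout (full window). In the sort experiment, cells at day 3.5 of doxycycline were separated by flow cytometry into CDH1- and CDH1+ cells, and each was kept on doxycycline with DMSO or SGC0946 to day 5.5. In the lentivirus experiment, MEFs of the same genotype received a lentivirus, either empty or encoding Cdh1, and were either left uninduced or given doxycycline for 2 days with DMSO or SGC0946. V6.5 embryonic stem cells (ESCs), for which the labels give no transgene and from which feeder cells were removed 24 h before harvest, served as the pluripotent reference. Each of the 18 groups had 2 libraries, so n = 2 throughout. The labels do not say that the 2 came from separate cultures, and p-values then measure only the spread between these libraries, which may be technical. Polyadenylated RNA was measured in bulk, and fewer cells expressing a gene cannot be told apart from less RNA per cell. Reprogramming cells and ESCs were grown on irradiated feeder MEFs, whose RNA is not separated in the counts.

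Total expected counts ranged from 32883668 to 50866706 per library in the timecourse, from 34927901 to 43123011 in the sort, from 18534377 to 35852109 in the lentivirus experiment and from 30694671 to 35161935 in ESCs. Levels are given as CPM, the read count scaled to a common normalised library size, which is not corrected for transcript length. Pou5f1, a factor of the cassette, stood at 1.24 and 1.55 CPM in the uninduced timecourse MEFs and at 211 and 208 after 2 days of doxycycline. Cdh1 stood at 0.426 and 0.486 CPM in MEFs with the empty virus and at 171 and 179 with the Cdh1 virus. For replicate 2 of the MEFs with Cdh1 virus, the source label names day 2 cells while title and treatment name uninduced MEFs; it was kept as MEFs, and its Pou5f1 level was 0.774 CPM. The summed TPM, a level corrected for transcript length, of 10 fibroblast markers ranged from 9260 to 9700 in timecourse MEFs, from 14500 to 15100 in MEFs with the empty virus and from 66.4 to 74.7 in ESCs. In ESCs, none of 10 pluripotency markers was at 0 and their summed TPM ranged from 5940 to 6420. Macrophage markers, also 10, were present in the MEFs, with a summed TPM of 362 to 369 in the timecourse and 2750 to 3010 with the empty virus.

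Upstream sequences of 3 of the 9 genes were matched by symbol in the RefSeq promoter table (build GRCm38.p6): Spint1, Spint2 and Grhl3. They are shown because that table held these members and none of the others, and they were not picked by their levels. Each is the 250 bases before the transcription start, read 5′ to 3′ on the gene's strand, from chr2:119237110-119237359 (plus strand) for Spint1, chr7:29281978-29282227 (minus strand) for Spint2 and chr4:135573633-135573882 (minus strand) for Grhl3. Capitals mark the E-box CACCTG or its reverse complement CAGGTG, the letters recognised by repressors of the Snail and Zeb families.
Spint1: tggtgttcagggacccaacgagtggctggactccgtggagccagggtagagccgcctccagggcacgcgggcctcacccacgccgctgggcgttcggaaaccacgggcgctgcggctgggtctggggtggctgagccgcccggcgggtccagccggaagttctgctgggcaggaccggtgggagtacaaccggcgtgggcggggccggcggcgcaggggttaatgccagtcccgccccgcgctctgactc
Spint2: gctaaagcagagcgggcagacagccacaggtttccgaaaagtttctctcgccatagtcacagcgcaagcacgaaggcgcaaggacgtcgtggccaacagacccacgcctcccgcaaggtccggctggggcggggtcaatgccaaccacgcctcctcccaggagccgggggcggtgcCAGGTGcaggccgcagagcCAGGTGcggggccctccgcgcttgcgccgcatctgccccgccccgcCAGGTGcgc
Grhl3: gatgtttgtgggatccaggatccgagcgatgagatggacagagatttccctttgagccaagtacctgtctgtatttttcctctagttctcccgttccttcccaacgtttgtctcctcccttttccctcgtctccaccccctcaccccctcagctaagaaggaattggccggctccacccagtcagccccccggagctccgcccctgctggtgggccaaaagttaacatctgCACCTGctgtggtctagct
The Spint2 sequence held 3 matches of this E-box on either strand, that of Grhl3 held 1 and that of Spint1 held 0. Of 32851 promoter windows of the same length, 17.2% held at least 1 match and 2.06% held 2 or more. The GC box GGGCGG (or CCGCCC) was matched 3 times in Spint1, 3 times in Spint2 and 1 time in Grhl3, against 32.7% of windows with a match. The motifs AACNNGTT, a grainyhead-like core, and TGANTCA, the AP-1 site, were matched 0 times in all 3, and were present in 3.64% and 6.75% of windows. GC content was 72.8% for Spint1, 69.6% for Spint2 and 56.0% for Grhl3, beside a median of 52.4% over all windows. These are letter matches only.

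In the timecourse, 8 of the 9 genes passed the filter on low counts and were tested, and Esrp1 did not pass. From uninduced MEFs to day 2 with DMSO, 4 of the 8 rose (St14, Grhl3, Ovol1 and Grhl2), against 40.4% of all 14473 genes tested. From day 2 to day 4 with DMSO, 5 of 8 rose (Spint1, Spint2, St14, Grhl3 and Prss8), against 38.1%. From MEFs to day 4, 7 of 8 rose, against 41.2%, and Esrp2 fell, against 41.0% of genes that fell. The share that rose from MEFs to day 2 is near the background. Cell type markers moved over the same steps. The summed TPM of 10 fibroblast markers was 9260 to 9700 in MEFs, 2780 to 2850 at day 2 and 3280 to 3300 at day 4 with DMSO. Over the same 3 groups, that of 10 simple epithelial markers was 74.4 to 78.7, 129 to 136 and 76.7 to 77.0, and that of 10 macrophage markers was 362 to 369, 51.5 to 57.6 and 220 to 226. Their part in the changes of the 8 genes was not tested. The median log2 difference of the 8 genes from MEFs to day 4 was 3.32, beside 0.008 over all genes tested.

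With inhibitor, more of the 8 genes were called higher than DMSO at day 4 after the full window than after either partial window. At day 2, Spint1 and Spint2 rose (2 of 8, against 8.73% of all genes). At day 4, 3 of 8 rose after the early window (Spint1, Spint2 and St14, against 3.19%), 4 of 8 after the mid window (the same 3 and Esrp2, against 14.0%) and 6 of 8 after the full window (these 4, Grhl2 and Prss8, against 19.0%). None of the 8 fell in any of these 4 comparisons. Grhl2 reached the filter's minimum count of 10 only in the full-window libraries, so the filter favoured its call there. The comparisons at day 4 share their DMSO libraries. Between the full and mid windows, edgeR called neither Grhl2 (log2 difference 0.98 ± 0.58 SE, adjusted p = 0.241) nor Prss8 (0.51 ± 0.40 SE, adjusted p = 0.405). The median log2 difference of the 8 genes was 0.26 at day 2, 0.17 after the early window, 0.64 after the mid window and 1.17 after the full window, while that of all genes tested lay between -0.005 and 0.012.

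**Figure D1:**
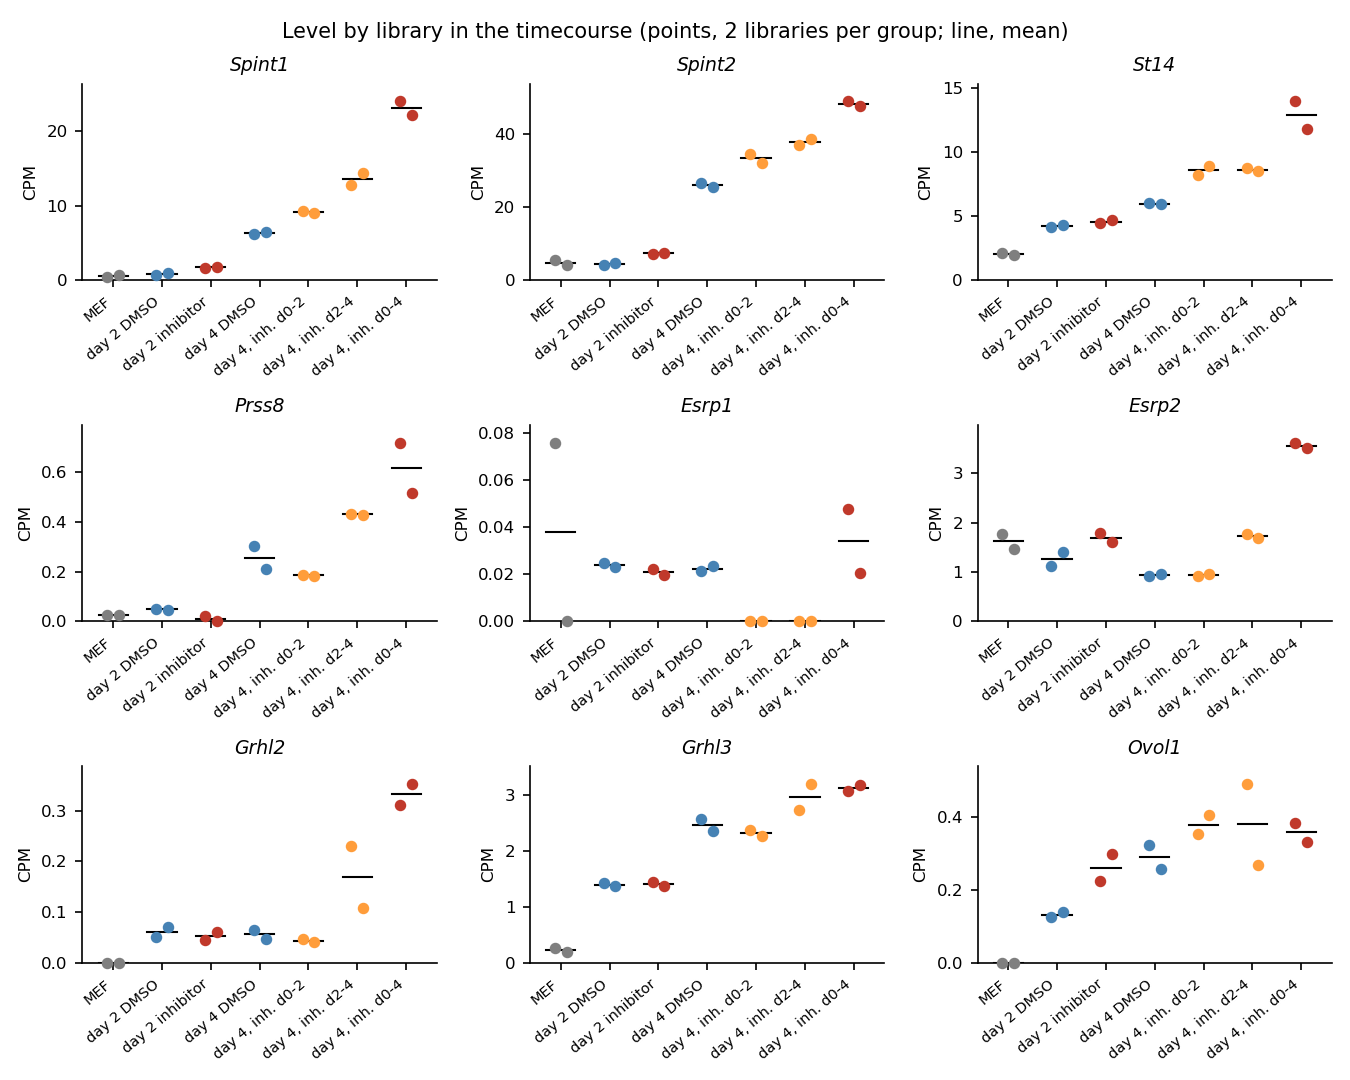
Levels in CPM (vertical axis, linear, one scale per gene) of the 9 genes in the 7 timecourse groups (horizontal axis); each point is a library and each line a group mean. Spint1 and Spint2 reach their highest levels in the 2 full-window libraries, Esrp2 is lower at day 4 with DMSO than in MEFs and highest with the full window, and Esrp1 stays below 0.1 CPM.

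Spint1, the matriptase inhibitor, stood at 0.406 and 0.695 CPM in uninduced MEFs, at 0.647 and 0.995 at day 2 with DMSO and at 1.65 and 1.77 at day 2 with inhibitor. At day 4 it stood at 6.23 and 6.43 CPM with DMSO, 9.33 and 8.96 with the early window, 12.7 and 14.3 with the mid window and 24.0 and 22.2 with the full window. The libraries of the 4 day 4 groups did not overlap, and the order of the group means was DMSO, early, mid, full. MEFs and day 2 DMSO cells overlapped and were not called (log2 difference 0.59 ± 0.28 SE, adjusted p = 0.0515); Spint1 was called higher at day 2 in limma at both pseudocounts and without replicate 2 of the MEFs (1.02) or replicate 1 of day 2 (0.86). Spint1 rose 7.63-fold from day 2 to day 4 with DMSO (log2 difference 2.93 ± 0.16 SE, adjusted p = 9.3e-20). The inhibitor raised it 2.06-fold at day 2 (log2 difference 1.05 ± 0.20 SE, adjusted p = 0.000208) and 3.65-fold at day 4 with the full window (log2 difference 1.87 ± 0.092 SE, adjusted p = 8.45e-20).

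The early window raised Spint1 by 0.53 ± 0.10 on the log2 scale (adjusted p = 0.000408) and the mid window by 1.09 ± 0.099 (adjusted p = 2.12e-11). The early window left it lower than the mid window (log2 difference -0.57 ± 0.094 SE, adjusted p = 1.51e-05), and the full window exceeded the mid window (log2 difference 0.77 ± 0.086 SE, adjusted p = 5.09e-09). In limma on log2(TPM + 0.1), the calls of the early window against DMSO (0.50) and against the mid window (-0.55) were lost. The inhibitor effect was larger at day 4 than at day 2 (difference of log2 effects 0.82 ± 0.24 SE, adjusted p = 0.0211), a call that was lost without replicate 2 of day 2 DMSO (0.46), replicate 1 of day 2 inhibitor (0.76) or replicate 1 of the full window (0.755) and in limma on log2(TPM + 0.1) (0.85). Its adjusted p over all alternatives reached 0.522.

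Spint2, the second inhibitor, was the most abundant of the 9 transcripts per length in every timecourse library, from 7.67 and 6.29 TPM in MEFs to 76.7 and 75.7 with the full window. In CPM it stood at 5.35 and 4.19 in MEFs, 4.21 and 4.54 at day 2 with DMSO and 7.15 and 7.47 at day 2 with inhibitor. At day 4 it stood at 26.4 and 25.6 CPM with DMSO, 34.4 and 32.1 with the early, 36.9 and 38.5 with the mid and 48.9 and 47.7 with the full window. As for Spint1, the day 4 groups did not overlap and followed the same order, and MEFs overlapped day 2 DMSO cells (log2 difference -0.13 ± 0.11 SE, adjusted p = 0.291, and a fall was called without replicate 2 of the MEFs, -0.29).

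The rise of Spint2 from day 2 to day 4 with DMSO was 5.93-fold (log2 difference 2.57 ± 0.083 SE, adjusted p = 2.51e-27). The inhibitor raised it 1.67-fold at day 2 (log2 difference 0.74 ± 0.098 SE, adjusted p = 2.87e-07), 1.28-fold after the early window (adjusted p = 0.000149), 1.45-fold after the mid window (adjusted p = 1.17e-08) and 1.86-fold after the full window (log2 difference 0.89 ± 0.061 SE, adjusted p = 2.37e-15). The effects at day 4 and day 2 were not told apart for Spint2 (difference of log2 effects 0.15 ± 0.12 SE, adjusted p = 0.523). The lower level after the early than after the mid window (log2 difference -0.18 ± 0.062 SE, adjusted p = 0.03) was lost in DESeq2, in limma at both pseudocounts and without replicate 2 of the early window (-0.13), replicate 1 of the mid window (-0.20) or replicate 2 of the mid window (-0.15). The full window exceeded the mid window by 0.36 ± 0.061 (adjusted p = 2.24e-05).

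St14, which encodes matriptase itself, rose by day 2. It stood at 2.13 and 1.95 CPM in MEFs and at 4.16 and 4.26 at day 2 with DMSO, a 2.06-fold rise between groups that did not overlap (log2 difference 1.04 ± 0.14 SE, adjusted p = 1.49e-08). Neither inhibitor gene was called over that interval, but Spint1 was near the threshold (log2 difference 0.595 ± 0.278 SE, adjusted p = 0.0515). The difference between the genes was not tested. The inhibitor left it at 4.43 and 4.65 CPM at day 2, where no difference was called (log2 difference 0.11 ± 0.12 SE, adjusted p = 0.58). At day 4 it stood at 5.97 and 5.95 CPM with DMSO, 8.23 and 8.88 with the early window, 8.74 and 8.52 with the mid window and 13.9 and 11.8 with the full window. The 2 partial windows overlapped and were not told apart (log2 difference -0.010 ± 0.097 SE, adjusted p = 0.959), and the full window was above them (log2 difference 0.57 ± 0.093 SE, adjusted p = 1.05e-05 against the mid window).

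The rise of St14 over DMSO at day 4 was 1.44-fold after the early window (adjusted p = 0.000389), 1.45-fold after the mid window (adjusted p = 8.83e-05) and 2.15-fold after the full window (log2 difference 1.11 ± 0.095 SE, adjusted p = 1.45e-12). The inhibitor effect was larger at day 4 than at day 2 (difference of log2 effects 1.00 ± 0.15 SE, adjusted p = 6.83e-06).

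Prss8, which encodes prostasin, a membrane-anchored protease that acts together with matriptase, was rare. It had 1 and 1 reads in MEFs and 2 and 2 at day 2 with DMSO. Its exons overlap those of Myst1 on the other strand, and reads from the overlap cannot be assigned. Myst1 stood at 18.7 and 19.4 CPM at day 4 with DMSO and 18.4 and 17.2 with the full window (log2 difference -0.098 ± 0.074 SE, adjusted p = 0.329). At day 4 Prss8 stood at 0.302 and 0.210 CPM with DMSO, 0.188 and 0.182 with the early window, 0.432 and 0.430 with the mid window and 0.719 and 0.519 with the full window. The mid and full windows lay above DMSO without overlap, and the early window lay below it. Neither partial window was called against DMSO (mid 0.74 ± 0.47 SE, adjusted p = 0.259, and early -0.47 ± 0.53 SE, adjusted p = 0.727). The early window had 8 and 9 reads and DMSO 14 and 9. The full window raised Prss8 2.37-fold (log2 difference 1.24 ± 0.42 SE, adjusted p = 0.0191). This call was lost without the filter (1.22), in DESeq2 (1.26) and without replicate 2 of day 4 DMSO (1.01) or replicate 1 of the full window (0.99), and the adjusted p over all alternatives reached 0.173. Its excess over the early window (log2 difference 1.72 ± 0.45 SE, adjusted p = 0.00285) was lost in DESeq2 (1.74) and without replicate 1 of the full window (1.46).

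Esrp2, a regulator of epithelial splicing, took another course. It stood at 1.77 and 1.47 CPM in MEFs and 1.12 and 1.41 at day 2 with DMSO, and fell to 0.927 and 0.956 at day 4 with DMSO, below both MEF libraries (log2 difference -0.79 ± 0.23 SE, adjusted p = 0.00189). The early window left it at 0.914 and 0.951 CPM, overlapping DMSO (log2 difference -0.012 ± 0.24 SE, adjusted p = 0.99), while the mid window brought it to 1.76 and 1.69 (log2 difference 0.87 ± 0.23 SE, adjusted p = 0.00318) and the full window to 3.62 and 3.51 (log2 difference 1.92 ± 0.20 SE, adjusted p = 2.41e-10). At day 2 with inhibitor it stood at 1.78 and 1.61 CPM, above both DMSO libraries but not called (log2 difference 0.41 ± 0.21 SE, adjusted p = 0.187). The inhibitor effect was larger at day 4 than at day 2 (difference of log2 effects 1.503 ± 0.30 SE, adjusted p = 0.000372).

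Because the day 4 groups form all combinations of an early and a mid exposure, the full effect was also compared with the sum of the effects of the early and mid windows on the log2 scale, a contrast added after the data had been seen. Of the 8 genes, Esrp2 exceeded the sum (difference 1.06 ± 0.31 SE, adjusted p = 0.0222), as did 5.85% of all genes tested. This call was lost in DESeq2 (1.07) and in 6 of the 8 fits that left out 1 library: each DMSO library (1.08 and 1.03), each early-window library (1.03 and 1.09), replicate 2 of the mid window (1.03) and replicate 1 of the full window (1.03). Its adjusted p over all alternatives reached 0.0848. For the genes not called, the differences from the sum were 0.24 ± 0.13 for Spint1, 0.002 ± 0.088 for Spint2, 0.051 ± 0.14 for St14 and 0.16 ± 0.24 for Grhl3. Esrp2 and Nfatc3 lie on opposite strands with overlapping exons, the kit did not mark strand, and reads from the overlap cannot be assigned; Nfatc3 was far more abundant, with 92.8 and 93.0 CPM at day 4 with DMSO and 85.5 and 91.7 with the full window (log2 difference -0.067 ± 0.039 SE, adjusted p = 0.194). After the mid window Nfatc3 fell (-0.19 ± 0.040 SE, adjusted p = 0.000389), while Esrp2 rose. From MEFs to day 4 with DMSO both genes fell (Nfatc3 -0.34 ± 0.039 SE, adjusted p = 2.59e-10). From day 2 to day 4 with DMSO Nfatc3 fell (-0.45 ± 0.038 SE, adjusted p = 8.57e-14), and Esrp2 was not called (-0.43 ± 0.23 SE, adjusted p = 0.0911). The part of overlap reads in the Esrp2 values was not tested.

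Esrp1, the other epithelial splicing regulator, had between 0 and 3 reads in each of the 14 timecourse libraries and was not tested there. Without the filter it was not called in any timecourse comparison.

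Grhl3, a grainyhead-like transcription factor, rose by day 2. It stood at 0.253 and 0.187 CPM in MEFs, 1.42 and 1.37 at day 2 with DMSO (6.22-fold, log2 difference 2.64 ± 0.31 SE, adjusted p = 6.32e-10) and 2.57 and 2.35 at day 4 with DMSO (1.77-fold over day 2, adjusted p = 0.000147). With inhibitor it stood at 1.45 and 1.37 CPM at day 2, overlapping DMSO (log2 difference 0.017 ± 0.20 SE, adjusted p = 0.973). At day 4 it stood at 2.37 and 2.27 with the early, 2.74 and 3.20 with the mid and 3.07 and 3.17 with the full window. The full window lay above DMSO without overlap but was not called (log2 difference 0.34 ± 0.16 SE, adjusted p = 0.105), except in limma on log2(TPM + 1) (0.24). The full window was called above the early window (log2 difference 0.43 ± 0.17 SE, adjusted p = 0.042), a call lost without the filter (0.41), in DESeq2 (0.43) and whenever any of the 4 libraries was left out (0.40 to 0.46).

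Grhl2, its relative, was listed at 0 in both MEF libraries and had 2 and 3 reads at day 2 and 3 and 2 reads at day 4 with DMSO. By raw library totals, these were 1.67-fold and 1.68-fold above a floor of 3 reads over the MEF group. The calls against MEFs (adjusted p = 0.043 and 0.044) were lost without the filter, in DESeq2 and whenever any of the libraries compared was left out; adjusted p-values over these alternatives reached 0.136 and 0.137. With the full window it stood at 0.312 and 0.353 CPM, against 0.0647 and 0.0466 with DMSO, groups that did not overlap (log2 difference 2.51 ± 0.69 SE, adjusted p = 0.00369). The mid window gave 0.231 and 0.107 CPM (log2 difference 1.53 ± 0.83 SE, adjusted p = 0.177) and the early window 0.0469 and 0.0404.

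Ovol1, a zinc-finger repressor of mesenchymal genes, was also listed at 0 in both MEF libraries. It had 5 and 6 reads at day 2 with DMSO (3.67-fold above the floor by raw library totals, adjusted p = 0.00236) and 15 and 11 at day 4 (8.72-fold, adjusted p = 1.91e-05). No inhibitor window changed it by the test: the log2 differences were 0.97 ± 0.58 at day 2, 0.38 ± 0.45 after the early, 0.37 ± 0.47 after the mid and 0.29 ± 0.46 after the full window.

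The windows were also compared with each other. The early window was lower than the mid window for 3 of 8 genes (Spint1, Spint2 and Esrp2, against 10.3% of all genes). The full window was higher than the mid window for 4 of 8 (Spint1, Spint2, St14 and Esrp2, against 11.6%) and higher than the early window for 7 of 8 (all but Ovol1, against 16.6%), although DESeq2 called 4 in the last comparison. Grhl2, among these 7, reached the filter's minimum count of 10 only in the full-window libraries. The day 4 effect exceeded the day 2 effect for 3 of 8 (Spint1, St14 and Esrp2, against 5.61%). Markers of other states moved with the full window at day 4. The summed TPM of 10 simple epithelial markers was 76.7 to 77.0 with DMSO and 164 to 169 with the full window, that of 10 trophoblast markers was 5.08 to 5.16 and 14.6 to 15.4, with Cdx2, Elf5 and Tpbpa at 0 in both full-window libraries, and that of 10 fibroblast markers was 3280 to 3300 and 3580 to 3650. In uninduced timecourse MEFs the trophoblast sum was higher than with the full window, at 19.6 to 19.9. The part of these cell states in the results was not tested.

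**Figure D2:**
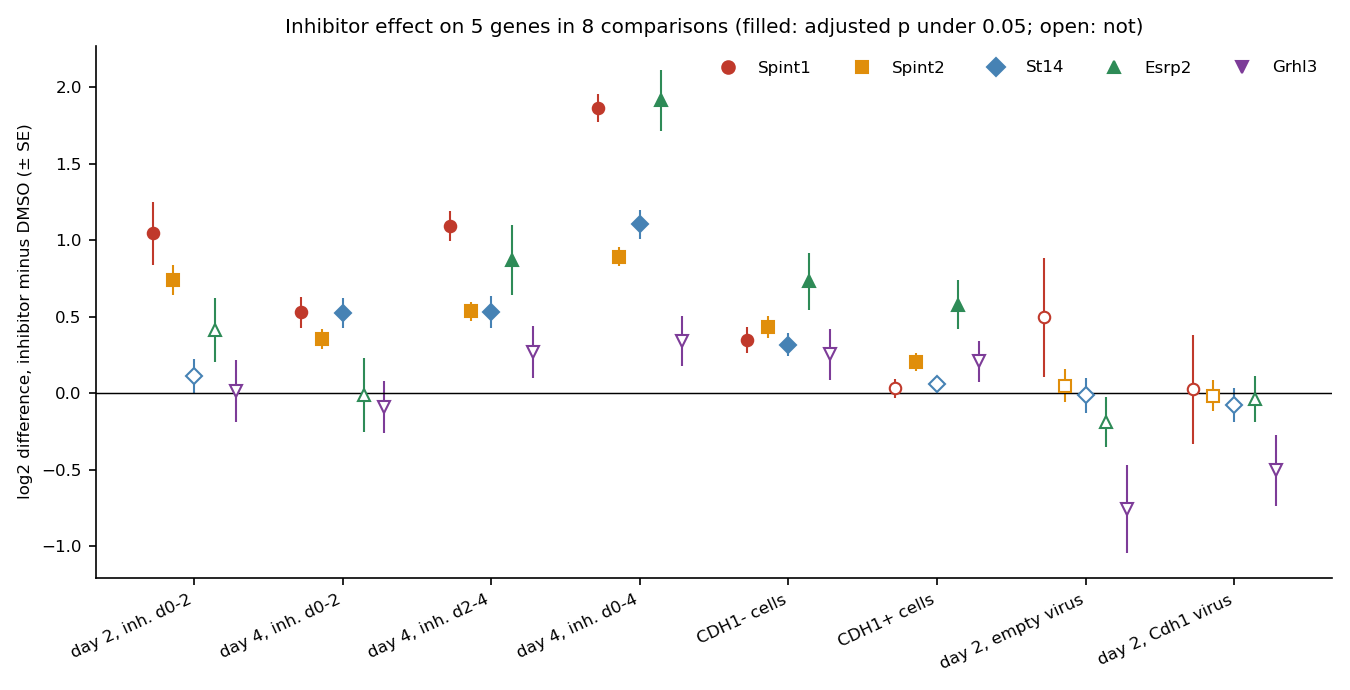
Log2 difference between inhibitor and DMSO (vertical axis, points with SE bars) of Spint1, Spint2, St14, Esrp2 and Grhl3 in 8 comparisons (horizontal axis), filled where the adjusted p of edgeR was under 0.05. For Spint1, Spint2, St14 and Esrp2 the highest of the 8 values is that of the full window at day 4 (1.87 for Spint1 and 1.92 for Esrp2). No point of Grhl3 is filled, and no point is filled in the 2 lentivirus comparisons.

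In the sort experiment all 9 genes were tested. CDH1+ and CDH1- cells differed for 8 of 9 genes with DMSO (against 26.6% of all 13968 genes called in either direction) and for 8 of 9 with inhibitor (against 26.8%). All 8 were higher in CDH1+ cells, and Ovol1 was the exception both times. Prss8 reached the filter's minimum count of 10 only in CDH1+ libraries, so the filter favoured its calls here. With inhibitor the count was 5 in DESeq2 and without replicate 2 of the CDH1+ inhibitor cells. The median log2 difference of the 9 genes was 1.49 with DMSO and 0.99 with inhibitor. The inhibitor, given after the sort, raised 4 of 9 genes in CDH1- cells (Spint1, Spint2, St14 and Esrp2, against 7.82%) and 2 of 9 in CDH1+ cells (Spint2 and Esrp2, against 8.33%). The latter count was 0 in DESeq2 and without replicate 1 of CDH1+ DMSO, and 1 without either CDH1+ inhibitor library. The difference between these inhibitor effects was called for 0 of 9 genes with edgeR, with DESeq2 and with limma at both pseudocounts, against 0.186% of all genes in either direction. At an unadjusted p under 0.05 the inhibitor effect was lower in CDH1+ cells for 3 of 9 (Spint1 -0.32 ± 0.10, Spint2 -0.23 ± 0.093 and St14 -0.26 ± 0.095). No share of all genes is given at that threshold, and the 0.186% does not apply to this count.

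**Figure D3:**
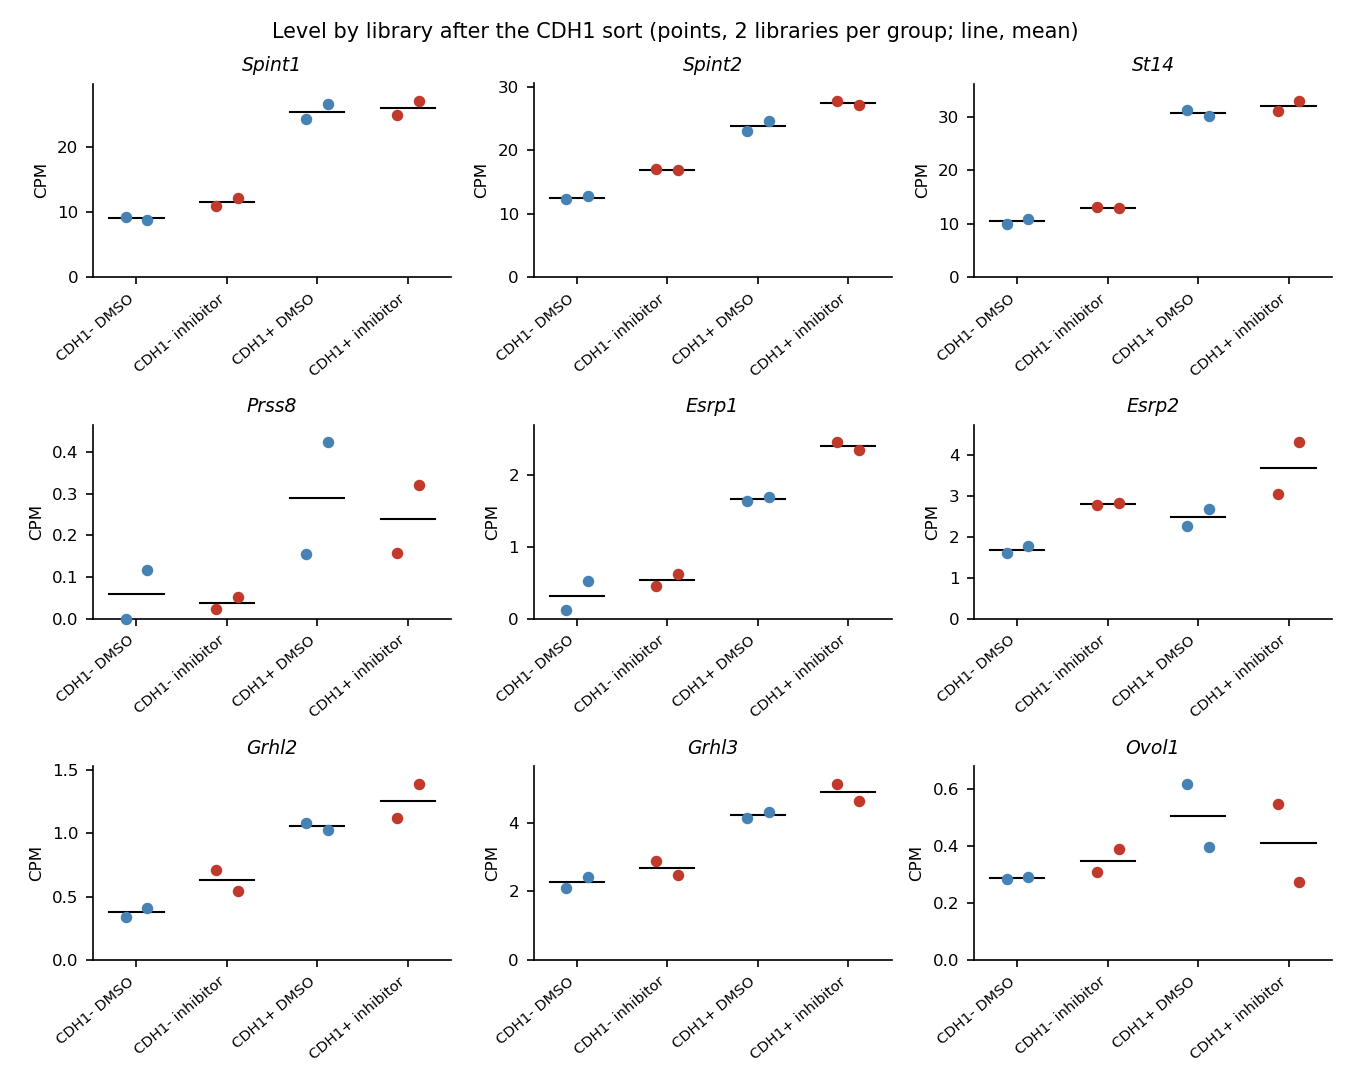
Levels in CPM (vertical axis, linear, one scale per gene) of the 9 genes in the 4 groups of the sort experiment (horizontal axis); each point is a library and each line a group mean. For Spint1, Spint2, St14, Prss8, Esrp1, Grhl2 and Grhl3 all 4 CDH1+ libraries lie above all 4 CDH1- libraries, with few reads for Prss8. For Esrp2 and Ovol1 they overlap. No share of all genes is given for this separation.

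Spint1 stood at 9.30 and 8.76 CPM in CDH1- cells with DMSO and 10.8 and 12.2 with inhibitor, a 1.27-fold rise (log2 difference 0.35 ± 0.084 SE, adjusted p = 0.000798) that was lost without replicate 2 of the CDH1- inhibitor cells (0.26). In CDH1+ cells it stood at 24.2 and 26.5 with DMSO and 24.9 and 27.0 with inhibitor, groups that overlapped (log2 difference 0.034 ± 0.062 SE, adjusted p = 0.777). The CDH1+ cells exceeded the CDH1- cells 2.81-fold with DMSO (log2 difference 1.49 ± 0.075 SE, adjusted p = 7.97e-35) and 2.26-fold with inhibitor (log2 difference 1.17 ± 0.069 SE, adjusted p = 1.91e-29).

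Spint2 stood at 12.3 and 12.8 CPM in CDH1- cells with DMSO and 17.0 and 17.0 with inhibitor (log2 difference 0.43 ± 0.071 SE, adjusted p = 5.49e-07). In CDH1+ cells it stood at 23.0 and 24.6 with DMSO and 27.7 and 27.1 with inhibitor. The groups did not overlap and a rise was called (log2 difference 0.20 ± 0.059 SE, adjusted p = 0.00677), but it was lost in DESeq2 (0.20) and without replicate 1 of CDH1+ DMSO (0.155) or replicate 1 of CDH1+ inhibitor (0.19). The excess of CDH1+ over CDH1- cells was 1.89-fold with DMSO (log2 difference 0.92 ± 0.068 SE, adjusted p = 1.67e-22) and 1.62-fold with inhibitor (log2 difference 0.69 ± 0.061 SE, adjusted p = 1.27e-17).

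St14 stood at 9.98 and 10.8 CPM in CDH1- and 31.3 and 30.0 in CDH1+ cells with DMSO (log2 difference 1.56 ± 0.068 SE, adjusted p = 5.51e-40), and 13.1 and 12.9 against 31.0 and 32.9 with inhibitor (log2 difference 1.30 ± 0.063 SE, adjusted p = 2.89e-36). The inhibitor raised it 1.25-fold in CDH1- cells (log2 difference 0.32 ± 0.077 SE, adjusted p = 0.000954) and gave a log2 difference of 0.060 ± 0.056 in CDH1+ cells (adjusted p = 0.522). Prss8 had 0 and 4 reads in CDH1- and 6 and 16 in CDH1+ cells with DMSO (log2 difference 2.25 ± 0.82 SE, adjusted p = 0.0298). With inhibitor the reads were 1 and 2 against 6 and 14 (log2 difference 2.60 ± 0.88 SE, adjusted p = 0.0187). Both Prss8 calls were lost in DESeq2 (2.32 and 2.67). The DMSO call was also lost without replicate 1 of CDH1- DMSO (1.28) or replicate 2 of CDH1+ DMSO (1.37), and the inhibitor call without replicate 1 of CDH1- inhibitor (2.15) or replicate 2 of CDH1+ inhibitor (1.97). Myst1, which overlaps Prss8, stood at 16.9 and 16.5 CPM in CDH1- and 15.5 and 16.3 in CDH1+ cells with DMSO.

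Esrp1 was detectable in the sorted cells, at 0.114 and 0.525 CPM in CDH1- and 1.63 and 1.69 in CDH1+ cells with DMSO (log2 difference 2.37 ± 0.33 SE, adjusted p = 4.13e-09). With inhibitor it stood at 0.451 and 0.626 in CDH1- and 2.45 and 2.35 in CDH1+ cells (log2 difference 2.16 ± 0.26 SE, adjusted p = 4.6e-11). In CDH1+ cells both inhibitor libraries lay above both DMSO libraries, and the difference was not called (log2 difference 0.53 ± 0.21 SE, adjusted p = 0.0645). In CDH1- cells the DMSO libraries differed from each other, the inhibitor difference was not called (log2 difference 0.74 ± 0.41 SE, adjusted p = 0.217), and it was called without replicate 2 of CDH1- DMSO (2.19).

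Esrp2 stood at 1.60 and 1.78 CPM in CDH1- cells with DMSO and 2.78 and 2.84 with inhibitor, without overlap (log2 difference 0.73 ± 0.18 SE, adjusted p = 0.00159), a call lost in DESeq2 (0.74). In CDH1+ cells it stood at 2.27 and 2.69 with DMSO and 3.05 and 4.32 with inhibitor, where the 2 inhibitor libraries were far apart (log2 difference 0.58 ± 0.16 SE, adjusted p = 0.00452). That call was lost in DESeq2 (0.57), in limma on log2(TPM + 0.1) (0.55) and without replicate 1 of CDH1+ DMSO (0.46) or replicate 2 of CDH1+ inhibitor (0.295). The difference by CDH1 (log2 difference 0.55 ± 0.19 SE, adjusted p = 0.0207 with DMSO and log2 difference 0.40 ± 0.15 SE, adjusted p = 0.0445 with inhibitor) was lost with DMSO in DESeq2 (0.56) and without replicate 1 of CDH1- DMSO (0.48) or replicate 2 of CDH1+ DMSO (0.43). With inhibitor it was lost in every alternative except the other normalisation and leaving out replicate 1 of CDH1+ inhibitor, down to 0.12 without replicate 2 of CDH1+ inhibitor. Nfatc3, which overlaps it, did not differ by the test between CDH1+ and CDH1- cells with DMSO (log2 difference -0.038 ± 0.036 SE, adjusted p = 0.477).

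Grhl2 stood at 0.343 and 0.409 CPM in CDH1- and 1.08 and 1.03 in CDH1+ cells with DMSO (log2 difference 1.49 ± 0.34 SE, adjusted p = 0.00036), and at 0.712 and 0.548 in CDH1- and 1.12 and 1.39 in CDH1+ cells with inhibitor (log2 difference 0.99 ± 0.28 SE, adjusted p = 0.00445); the latter call was lost in DESeq2 (1.00) and without replicate 2 of CDH1- inhibitor (0.82) or replicate 2 of CDH1+ inhibitor (0.82). Grhl3 stood at 2.09 and 2.42 CPM in CDH1- and 4.13 and 4.31 in CDH1+ cells with DMSO (log2 difference 0.90 ± 0.16 SE, adjusted p = 1.55e-06), and at 2.89 and 2.48 in CDH1- and 5.13 and 4.63 in CDH1+ cells with inhibitor (log2 difference 0.85 ± 0.14 SE, adjusted p = 6.63e-07). Neither gene changed with inhibitor by the test in CDH1- cells (Grhl2 0.75 ± 0.38, Grhl3 0.26 ± 0.17) or CDH1+ cells (Grhl2 0.26 ± 0.26, Grhl3 0.21 ± 0.13). Ovol1 stayed between 0.274 and 0.62 CPM in all 8 libraries, and its CDH1+ and CDH1- libraries overlapped with inhibitor.

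Markers of other cell types moved with the sort. With DMSO, the summed TPM of 10 keratinocyte markers was 33.3 to 33.6 in CDH1- and 67.1 to 72.1 in CDH1+ cells, that of 10 simple epithelial markers 252 to 262 and 354 to 361, that of 10 pluripotency markers 11.0 to 12.3 and 24.3 to 26.1, and that of 10 macrophage markers 16.9 to 17.8 and 112 to 119. None of these markers was at 0 in both libraries of either group. Their part in the differences by CDH1 was not tested.

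In the lentivirus experiment, forced Cdh1 expression left all 9 genes uncalled in uninduced MEFs: edgeR called 0 of 9 (against 1.14% of 15044 genes in either direction), 0 of 9 had an unadjusted p under 0.05, and DESeq2 and limma also called 0. Esrp1 and Grhl2 had 0 reads in both groups, so neither could be called. In this fit Esrp1, Grhl2 and Prss8 reached the filter's minimum count of 10 only in ESC libraries. The values without replicate 2 of the Cdh1-virus MEFs, the library with conflicting labels, also gave 0 calls. At day 2, the Cdh1 virus was followed by a call for 1 of 9 genes, Esrp1, which was lower (against 0.751%). Esrp1 had 9 and 3 reads with the empty virus and 0 and 0 with the Cdh1 virus (adjusted p = 0.0403). By raw library totals, the empty-virus cells were 4.77-fold above a floor of 3 reads over the Cdh1-virus group. The call was lost in DESeq2, in limma at both pseudocounts and without replicate 1 of the empty-virus DMSO cells or either Cdh1-virus DMSO library, and adjusted p-values over the alternatives reached 0.567. With the ESC libraries left out of the fit, Esrp1 did not pass the filter. The summed TPM of 10 pluripotency markers was 13.0 to 17.1 in the empty-virus and 4.32 to 4.43 in the Cdh1-virus cells at day 2 with DMSO, and their part was not tested.

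The inhibitor changed none of the 9 genes in this experiment by the test. With the empty virus, edgeR called 0 of 9 (against 6.73% of all genes in either direction) and 1 of 9, Grhl3, had an unadjusted p under 0.05. With the Cdh1 virus, edgeR called 0 of 9 (against 5.05%) and again Grhl3 alone had an unadjusted p under 0.05. Grhl2 had 0 reads in both Cdh1-virus groups at day 2, so it could not be called there. DESeq2 and limma called 0 in both. The percentages refer to adjusted p only, and no share of all genes is given for the counts at an unadjusted p. The difference between the inhibitor effects with the 2 viruses was called for 0 of 9 (against 0.0%, with 0 at an unadjusted p under 0.05 and 0 in DESeq2 and limma). Spint1 stood at 0.320 and 0.288 CPM with DMSO and 0.427 and 0.432 with inhibitor in empty-virus cells (log2 difference 0.50 ± 0.39 SE, adjusted p = 0.583). Spint2 stood at 12.4 and 11.2 CPM with DMSO and 10.7 and 13.4 with inhibitor, groups that overlapped (log2 difference 0.049 ± 0.11 SE, adjusted p = 0.843). Grhl3 stood at 1.51 and 1.76 with DMSO and 0.961 and 0.981 with inhibitor, lower without overlap but not called (log2 difference -0.76 ± 0.29 SE, adjusted p = 0.119). Cdh1 itself was also not called with inhibitor in the empty-virus cells (log2 difference -0.14 ± 0.17 SE, adjusted p = 0.701), whereas without virus at day 2 it rose (1.29 ± 0.11 SE, adjusted p = 2.07e-11).

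Whether the day 2 results differed between the experiments was tested in a fit of both together, added after the data had been seen. The experiments differ in virus, read layout, spiked RNA and preparation, which cannot be told apart. The inhibitor effect was larger without virus than with the empty virus for 1 of 9 genes, Spint2 (difference 0.69 ± 0.15 SE, adjusted p = 0.00536, against 2.09% of all 15452 genes), a call lost without replicate 1 of the empty-virus inhibitor cells (0.545). For Spint1, whose inhibitor effect was called without virus, the difference was not called (difference 0.55 ± 0.48 SE, adjusted p = 0.656). The change from MEFs to day 2 was higher without virus than with the empty virus for 5 of 9 genes (Spint1, Spint2, St14, Grhl3 and Ovol1, against 25.8%) and lower for 2 of 9 (Esrp1 and Esrp2, against 29.1%). When 1 of the 8 libraries was left out, the number called ranged from 4 (without replicate 1 of the empty-virus MEFs) to 7. The calls of St14 and Esrp2 were each lost in 4 of these 8 fits, that of Spint2 in 2, that of Grhl3 without replicate 1 of the empty-virus MEFs (1.23) and that of Esrp1 without replicate 1 of the timecourse MEFs (-3.03).

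Within the lentivirus experiment, 3 of 9 genes rose from MEFs to day 2 with the empty virus (Esrp1, Grhl3 and St14, against 33.4% of all genes) and 3 of 9 fell (Spint1, Spint2 and Ovol1, against 32.7%). Spint2 stood at 18.6 and 17.2 CPM in these MEFs and fell to the day 2 values given above (log2 difference -0.60 ± 0.10 SE, adjusted p = 1.83e-05). Spint1 stood at 0.686 and 0.662 CPM and fell likewise (log2 difference -1.14 ± 0.35 SE, adjusted p = 0.0135), a call lost without replicate 1 of the empty-virus MEFs (-1.12) or replicate 2 of the day 2 cells (-1.07). St14 rose from 5.67 and 5.17 to 8.52 and 7.42 (log2 difference 0.55 ± 0.12 SE, adjusted p = 0.000387). Grhl3 rose from 1.05 and 0.618 (log2 difference 0.98 ± 0.30 SE, adjusted p = 0.00604), a call lost without replicate 2 of the empty-virus MEFs (0.64). Ovol1 fell from 0.320 and 0.309 to 0.0800 and 0.108 CPM (log2 difference -1.69 ± 0.73 SE, adjusted p = 0.0466), a call lost in DESeq2 (-1.75), with the replicate block (-1.69) and whenever any of the 4 libraries was left out (-1.92 to -1.505). Esrp1 was at 0 in both MEF libraries and rose to 3.33-fold above the floor of 3 reads (adjusted p = 0.00207), a call lost in limma on log2(TPM + 1). Over the same step the macrophage markers went from a summed TPM in the range 2750 to 3010 down to the range 386 to 418. The fibroblast markers went from the range 14500 to 15100 to the range 4250 to 4310. Their part was not tested.

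**Figure D4:**
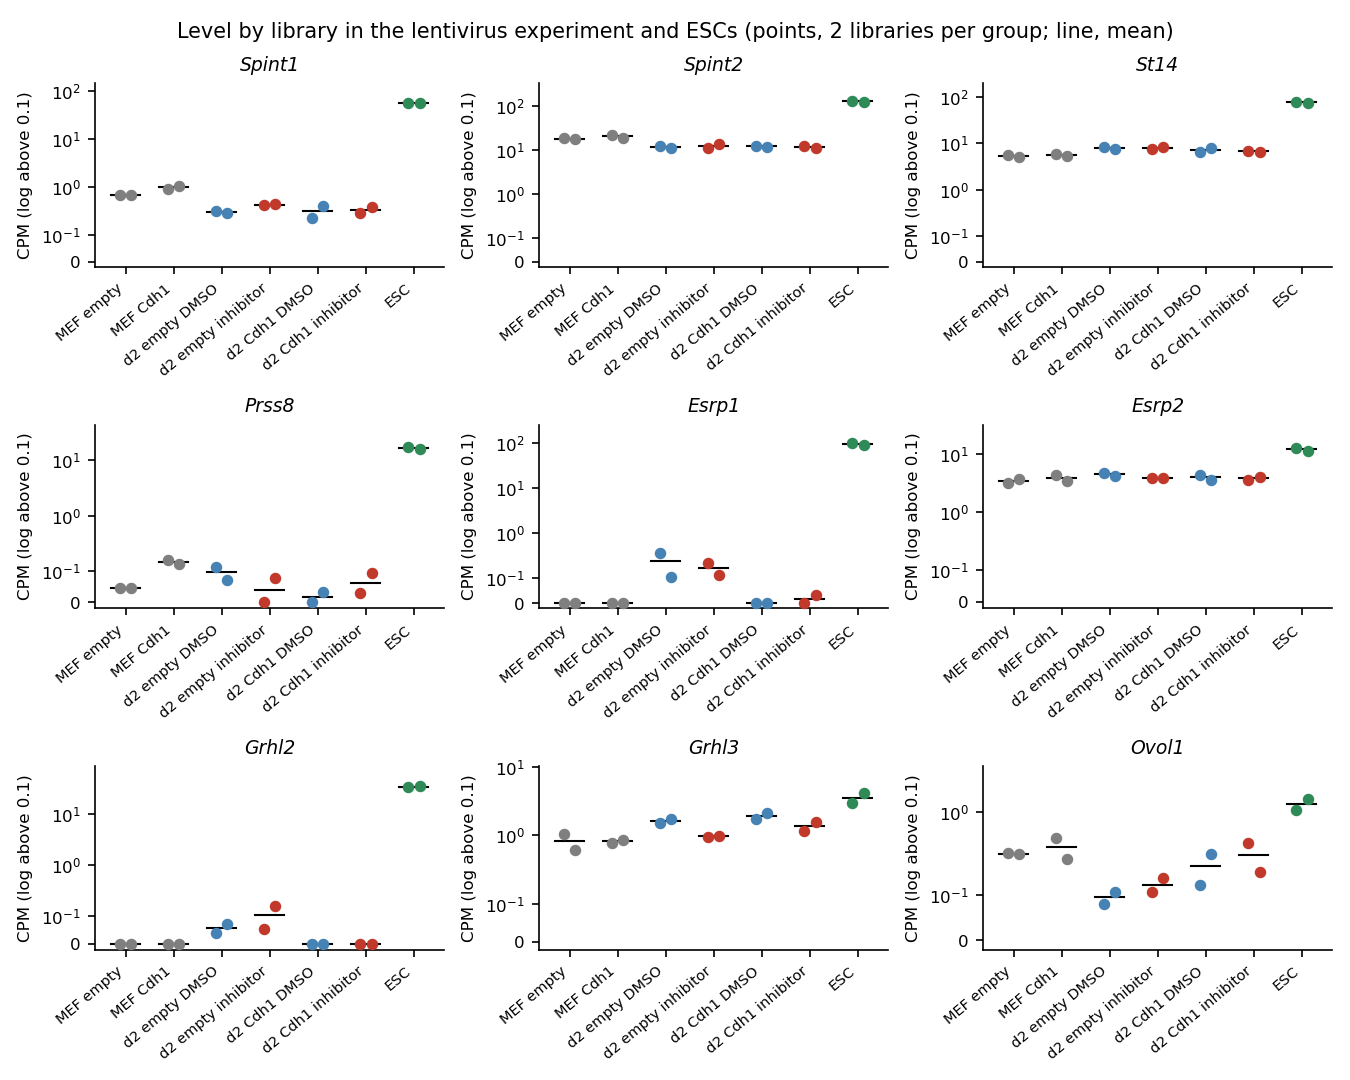
Levels in CPM (vertical axis, logarithmic above 0.1 CPM and linear below) of the 9 genes in the 6 lentivirus groups and in ESCs (horizontal axis); each point is a library and each line a group mean. Both ESC libraries lie above all 12 lentivirus libraries for every gene.

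ESCs exceeded the empty-virus MEFs for 9 of 9 genes (against 44.5% of all genes), with a median log2 difference of 3.83 beside 0.003 over all genes tested. Esrp1, Grhl2 and Prss8 reached the filter's minimum count of 10 only in ESC libraries. They were tested because they are high in ESCs, so their part of the 9 of 9 was fixed by the filter. The share over all genes does not account for this. ESCs and MEFs differ in line, feeder removal and virus as well as in cell type. Spint1 stood at 57.2 and 56.2 CPM in ESCs (83.6-fold, log2 difference 6.38 ± 0.15 SE, adjusted p = 5.32e-22), Spint2 at 129.6 and 126 (7.13-fold, log2 difference 2.83 ± 0.090 SE, adjusted p = 2.02e-19) and St14 at 78.6 and 75.1 (14.2-fold, log2 difference 3.83 ± 0.10 SE, adjusted p = 7.88e-21). Prss8, at 1 and 1 reads in the MEFs, stood at 17.3 and 16.2 CPM (log2 difference 8.41 ± 0.32 SE, adjusted p = 5.26e-18). Its exons overlap Myst1 on the other strand, which stood at 39.3 and 33.7 CPM in ESCs and 20.0 and 19.8 in the MEFs.

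The widest gaps were those of Esrp1 and Grhl2, which had 0 reads in both empty-virus MEF libraries. Esrp1 stood at 99.3 and 88.8 CPM in ESCs, 1320-fold above the floor of 3 reads by raw library totals (adjusted p = 1.81e-19). Grhl2 stood at 33.5 and 35.1 CPM, 485-fold above that floor (adjusted p = 3.38e-18). Of the other 3 genes, Esrp2 stood at 12.6 and 11.3 CPM (log2 difference 1.80 ± 0.14 SE, adjusted p = 2.07e-11), Grhl3 at 3.02 and 4.11 (log2 difference 2.10 ± 0.26 SE, adjusted p = 4.89e-08) and Ovol1 at 1.08 and 1.45 (log2 difference 2.00 ± 0.41 SE, adjusted p = 8.91e-05).

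Ratios of TPM within a library place the members of each family beside each other. The timecourse and sort libraries were sequenced paired-end and held added human RNA, unlike the lentivirus and ESC libraries, so ratios across experiments are descriptions, with no test. Of the TPM of Esrp1 and Esrp2 together, Esrp2 made up 96.8 and 100% in timecourse MEFs, 98.6 and 98.6% at day 4 with DMSO and 99.3 and 99.6% with the full window. In the sort with DMSO it made up 95.2 and 83.4% in CDH1- and 66.9 and 70.0% in CDH1+ cells, and in ESCs 15.6% in both libraries. Of the TPM of Grhl2 and Grhl3 together, Grhl3 made up 98.4 and 98.8% at day 4 with DMSO, 94.8 and 94.2% with the full window, 87.2 and 88.2% in CDH1+ cells with DMSO and 14.0 and 17.3% in ESCs. Up to day 5.5, including CDH1+ cells, the prevailing members were Esrp2 and Grhl3, whereas in ESCs they were Esrp1 and Grhl2.

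The summed TPM of the 2 inhibitor genes relative to St14 was 8.42 and 7.55 in timecourse MEFs, 3.52 and 3.82 at day 2 with DMSO and 5.79 and 5.84 at day 2 with inhibitor. At day 4 it was 16.1 and 15.8 with DMSO and 14.4 and 16.5 with the full window, which overlapped. In the sort with DMSO it was 5.65 and 5.27 in CDH1- and 3.76 and 4.23 in CDH1+ cells, and 6.54 and 6.66 in ESCs. The inhibitor transcripts together exceeded the matriptase transcript per length in all 36 libraries, by the least at day 2 with DMSO and in CDH1+ cells.

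**Figure D5:**
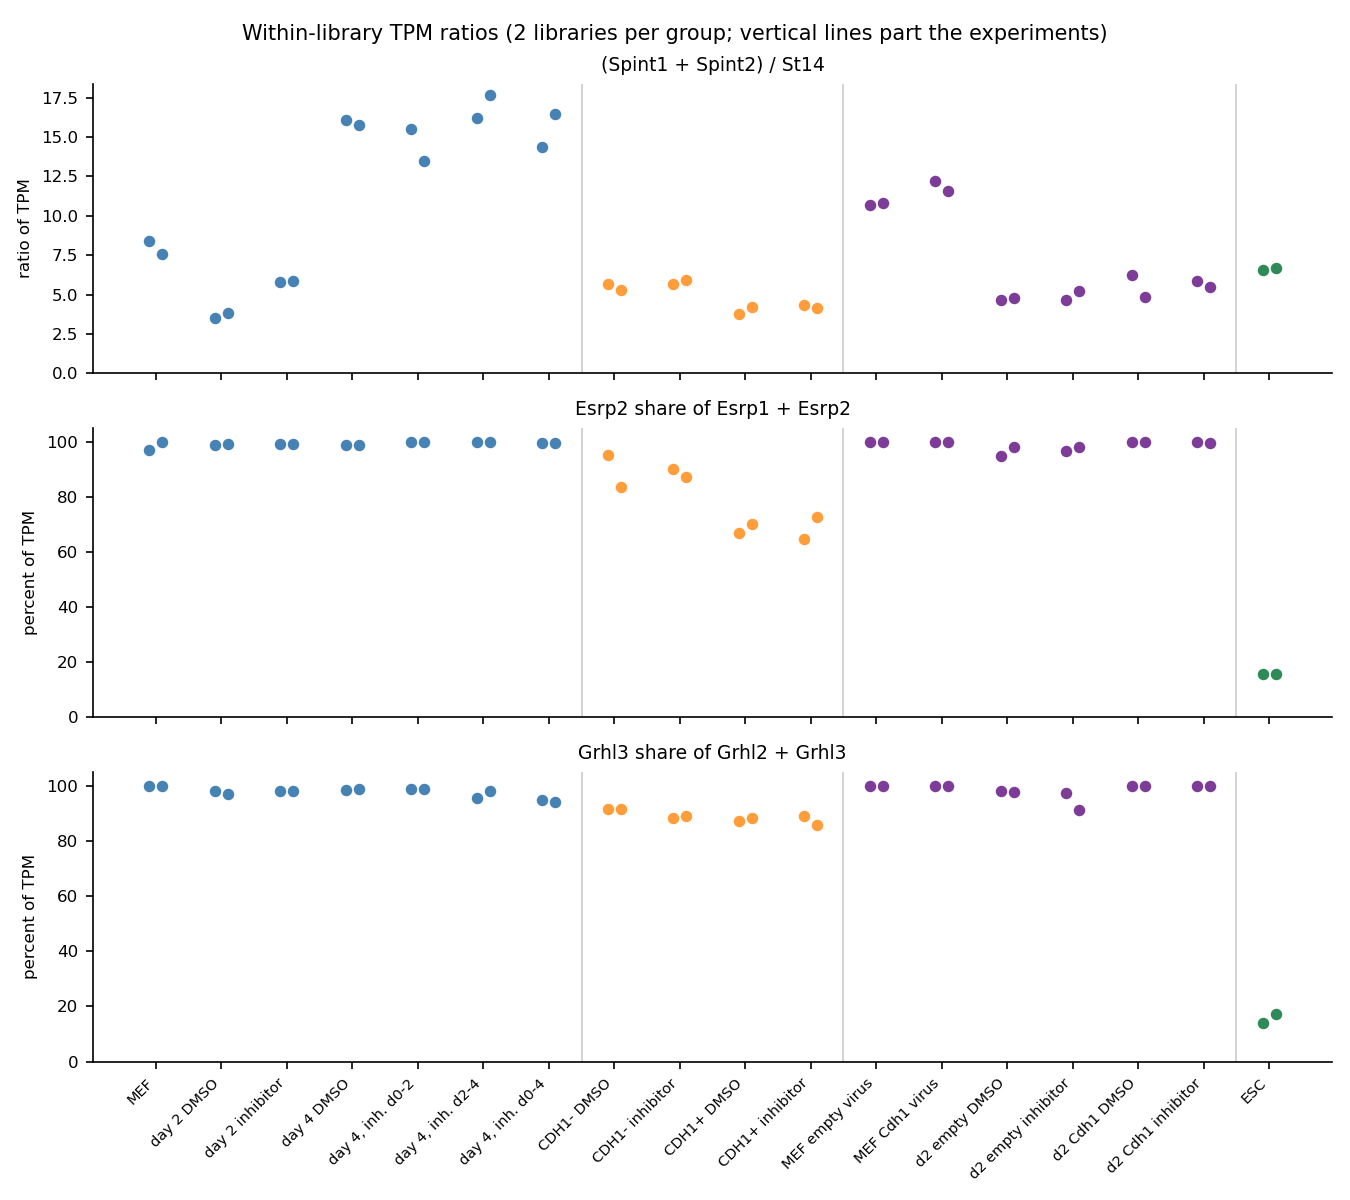
Ratio of Spint1 plus Spint2 to St14 (top, ratio of TPM), share of Esrp2 in Esrp1 plus Esrp2 (middle, percent of TPM) and share of Grhl3 in Grhl2 plus Grhl3 (bottom, percent of TPM) in the 18 groups (horizontal axis); each point is a library, and vertical lines separate the experiments. The Esrp2 and Grhl3 shares stay above 64% in all libraries but the 2 of ESCs, where they are at 15.6% and at 14.0% and 17.3%.

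Other genes of these pathways were described from 4 lists, which were also chosen with earlier results of these data known. Of 16 substrates and partners of matriptase and prostasin, the full window at day 4 left 6 higher and 1 lower of 12 tested, against 19.0% higher and 15.8% lower over all genes (median log2 difference 0.38 against -0.005 over all genes tested). Epcam, a cell adhesion protein cleaved by matriptase, rose (4.05 ± 0.370 CPM against 0.784 ± 0.0202, log2 difference 2.36 ± 0.23 SE), as did F2rl1, the protease-activated receptor (46.8 ± 2.08 CPM against 26.5 ± 1.62, log2 difference 0.82 ± 0.061 SE), and Plau, the urokinase protease (25.4 ± 1.32 CPM against 18.1 ± 0.0965, log2 difference 0.49 ± 0.056 SE). At day 2 the inhibitor gave 6 higher and 0 lower of 12 tested, against 8.73% higher and 9.11% lower over all genes, with F2rl1 among those that rose (log2 difference 0.51 ± 0.085 SE). In the sort with DMSO, CDH1+ cells gave 7 higher and 0 lower of 13 tested, against 26.6% of all genes called in either direction (median 0.34 against 0.001 over all genes tested), led by Epcam (log2 difference 1.61 ± 0.11 SE). The inhibitor gave 2 higher and 2 lower of 13 tested in CDH1- cells, against 7.82% higher and 10.8% lower over all genes, and 3 higher and 3 lower of 13 tested in CDH1+ cells, against 8.33% higher and 10.5% lower over all genes. Plau, which rose with inhibitor at day 4, fell with it in sorted CDH1- cells (log2 difference -0.41 ± 0.032 SE) and CDH1+ cells (log2 difference -0.45 ± 0.030 SE).

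Of 20 related membrane serine proteases and inhibitors in the files, 6 passed the filter in each experiment. The full window gave 1 higher and 1 lower of 6 tested, against the shares of all genes given above: Prss27, a membrane-anchored protease, rose from a low level (0.310 ± 0.0313 CPM against 0.0889 ± 0.0268) and Serpine2, a secreted protease inhibitor, fell (206 ± 2.81 CPM against 244 ± 0.888, log2 difference -0.25 ± 0.032 SE). Serpine2 also fell with inhibitor in CDH1- (log2 difference -0.11 ± 0.028 SE) and CDH1+ cells (log2 difference -0.085 ± 0.027 SE), the only one of the 6 called in those comparisons. In ESCs, Hpn, which encodes the transmembrane protease hepsin, was higher (14.0 ± 0.981 CPM against 0.721 ± 0.145) and Serpine2 lower (52.0 ± 4.03 CPM against 1200 ± 34.8) than in empty-virus MEFs.

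Of 18 relatives in epithelial transcription and splicing, a list that also holds mesenchymal repressors, the full window gave 8 higher and 4 lower of 16 tested, against 19.0% higher and 15.8% lower over all genes (median log2 difference 0.21 against -0.005 over all genes tested). Tcfap2c, an AP-2 factor that the trophoblast list holds too, rose (9.44 ± 0.889 CPM against 2.03 ± 0.254, log2 difference 2.22 ± 0.16 SE), as did Ehf, an epithelial ETS factor (10.9 ± 0.489 CPM against 3.77 ± 0.114, log2 difference 1.53 ± 0.12 SE), and the mesenchymal factor Twist2 fell (6.72 ± 0.415 CPM against 13.6 ± 0.454, log2 difference -1.02 ± 0.078 SE). The inhibitor also raised Tcfap2c and Ehf at day 2 (log2 difference 1.70 ± 0.37 SE and 1.07 ± 0.19 SE), in CDH1- cells (log2 difference 1.13 ± 0.12 SE and 0.60 ± 0.10 SE) and in CDH1+ cells (log2 difference 0.75 ± 0.097 SE and 0.56 ± 0.095 SE). From MEFs to day 4 with DMSO the list gave 8 higher and 8 lower of 16 tested, near the background of 41.2% higher and 41.0% lower over all genes; Twist2, Snai2 and Zeb2 fell (log2 difference -3.15 ± 0.059 SE, -1.99 ± 0.062 SE and -1.48 ± 0.051 SE). Ovol2, a relative of Ovol1, was higher in CDH1+ than in CDH1- cells with DMSO (0.799 ± 0.290 CPM against 0.144 ± 0.0388, log2 difference 2.44 ± 0.47 SE).

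Of 10 epithelial junction and trafficking genes, the full window gave 6 higher and 0 lower of 7 tested, against 19.0% higher and 15.8% lower over all genes (median log2 difference 1.84 against -0.005 over all genes tested), the highest median of the 4 lists. Cdh1 (27.9 ± 1.28 CPM against 7.78 ± 0.348, log2 difference 1.84 ± 0.083 SE), Cldn3 (13.9 ± 1.16 CPM against 3.22 ± 0.0346, log2 difference 2.11 ± 0.11 SE) and Krt7 (2.83 ± 0.0725 CPM against 0.944 ± 0.0837, log2 difference 1.59 ± 0.19 SE) rose. With inhibitor the list gave 2 higher and 0 lower of 7 tested at day 2 (against 8.73% of all genes higher), 4 higher and 0 lower of 9 tested in CDH1- cells (against 7.82%) and 5 higher and 0 lower of 9 tested in CDH1+ cells (against 8.33%). Cldn3, a tight junction claudin, rose in both sorted populations (log2 difference 1.57 ± 0.17 SE in CDH1- and log2 difference 1.64 ± 0.16 SE in CDH1+ cells). Krt7 was higher in uninduced timecourse MEFs, at 10.8 ± 0.534 CPM, than at day 4 with DMSO or the full window. Cdh1 and Krt7 are also among the simple epithelial markers, and CDH1 protein was the basis of the sort.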

How the data were processed

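RNA-seq was described for 36 libraries in 18 groups of 2. Per the labels' protocols, 1 µg of RNA entered a polyA-selecting TruSeq V2 preparation, which does not mark strand, and 20 ng of human 293T RNA was added to timecourse and sort samples. The submitters' processing notes name Trimmomatic, Bowtie, RSEM 1.2.4, mm9 and hg18. The authors deposited RSEM expected counts and TPM per gene, with the filter on reads not given in the sources used here. Ambiguous reads are shared out by RSEM, so values of overlapping genes are uncertain.

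Expected counts were rounded, filtered (filterByExpr, minimum count 10, minimum total 15), TMM-normalised and tested with edgeR 4.0.16 (quasi-likelihood, robust) in R 4.3.3, separately for the timecourse (14 libraries), the sort (8) and the lentivirus and ESC libraries (14), with 7, 4 and 7 residual degrees of freedom. Benjamini-Hochberg adjusted p-values run over all genes tested, and a call is an adjusted p under 0.05. Shares of all genes refer to calls, and none is given for counts at an unadjusted p. Samples were grouped by their titles. With 2 libraries a group, the spread between replicates rests mainly on the pooled estimate of each fit. TPM was used for levels between genes and for ratios within a library. A fold against a group at 0 used a floor of 3 reads over the group and raw library totals without TMM scaling. The floor covers the counting error of the group at 0 only, and the reads of the other group were taken as counted. In the timecourse the TMM factors were 0.888 and 0.892 for MEFs and 1.038 and 1.041 for day 4 DMSO, so scaling would lower the folds of day 4 against MEFs.

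The 9 genes and all lists were chosen with earlier results of these data known. All members are named, and up to 3 genes per pathway list and comparison with the smallest p. A single value from another gene is given only beside a result. Alternatives were DESeq2 1.42.0, its size factors, no filter, the replicate number as a block, limma 3.58.1 on log2(TPM + 0.1) and log2(TPM + 1) of genes with a TPM of at least 1 in 2 libraries, leaving out each library compared, and the fit without ESCs. A fit of 28 libraries, Esrp1 without the filter, and the contrast of the full window with the sum of the windows were added after the data had been seen. The edgeR step was tested on simulated data. Promoter sequences were read from RefSeq (GRCm38.p6), whose build differs from mm9, and no coordinate was converted.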

Additional observations from a re-analysis of the deposited data

Results flagged for a closer look

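The following differences between effects passed the test of the difference itself in edgeR. The inhibitor effect at day 4 exceeded that at day 2 for Esrp2 by 1.503, for St14 by 1.00 and for Spint1 by 0.82 on the log2 scale. The full-window effect on Esrp2 exceeded the sum of the early and mid effects by 1.06. The inhibitor effect on Spint2 at day 2 was larger without virus than with the empty virus by 0.69. The change from MEFs to day 2 was more positive without virus than with the empty virus for Spint1 by 1.72, for Spint2 by 0.46, for St14 by 0.47, for Grhl3 by 1.64 and for Ovol1 by 6.95, and more negative for Esrp1 (-6.64) and Esrp2 (-0.73). Of these, Ovol1 and Esrp1 had groups with 0 reads in MEFs, so their values are fitted and are no bounds. Virus, sequencing layout and preparation differ together between the 2 experiments and cannot be told apart.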

How the results depend on the processing

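Of 222 differences of single genes given alternatives, 46 had the opposite sign under at least 1 of them; 0 of these were called in edgeR and 0 under the alternative with that sign. The number of the 9 genes called changed by more than 1.5 times in these comparisons. For day 4 DMSO against MEFs, limma at either pseudocount called 5, against 8, because only 5 passed its TPM filter. For the early against the mid window, limma on log2(TPM + 0.1) called 1, against 3. For the full against the early window, DESeq2 called 4, against 7. For the full window against the sum of the windows, DESeq2 called 0, against 1, and leaving out 1 library gave 0 to 1. For CDH1+ against CDH1- cells with inhibitor, DESeq2 called 5 and limma 5 at each pseudocount, against 8, and leaving out 1 library gave 5 to 8, the 5 without replicate 2 of the CDH1+ inhibitor cells. For the inhibitor in CDH1+ cells, DESeq2 called 0 and limma on log2(TPM + 0.1) called 1, against 2, and leaving out 1 library gave 0 to 2, the 0 without replicate 1 of CDH1+ DMSO and 1 without either CDH1+ inhibitor library. For the Cdh1 virus at day 2, DESeq2, limma at both pseudocounts and the fit without ESCs called 0, against 1, and leaving out 1 library gave 0 to 1. In the fit of both experiments, leaving out 1 library gave 0 to 1 for the inhibitor effect (0 without replicate 1 of the empty-virus inhibitor cells) and 4 to 7 for the change from MEFs to day 2 (4 without replicate 1 of the empty-virus MEFs). Apart from the TPM filter, the causes were not tested.

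With the replicate block, Esrp2 in CDH1+ against CDH1- cells with inhibitor (0.38, adjusted p = 0.0535) and Ovol1 at day 2 against MEFs with the empty virus (-1.69, adjusted p = 0.0565) were no longer called in edgeR, and no other call of a member changed. Replicate numbers did not pair the libraries: same-numbered libraries had correlations of deviations from -0.09 to 0.11. Few reads lie behind Prss8 (0 to 30 a library) and Ovol1 (0 to 24) outside ESCs, and behind Esrp1 (0 to 9) and Grhl2 (0 to 17) outside ESCs and the sort. In the lentivirus experiment the same holds for Spint1 (7 to 28 a library). Each group had 2 libraries, so a fit that leaves 1 out assumes that the lone library varies like the other groups.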

Other observations

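Which genes had the profile most like that of each member was described over the 17 groups other than ESCs, as the Pearson correlation of mean log2 CPM after centring on each experiment, among 12615 genes. The groups share libraries as controls and the genes share each library's depth, so no p is given. Spint1 and Spint2 had each other as nearest gene, with r = 0.983 and a Spearman rho of 0.971. After Spint2, Spint1 was nearest to Fgf14 (0.972) and Scube3 (0.971), and after Spint1, Spint2 was nearest to Stap2 (0.981) and Zkscan4 (0.98). St14 was nearest to Elovl7 (0.919), Sp6 (0.912) and Epb4.1l5 (0.91). Over these nearest genes of all 8 members ranked, Spearman rho ranged from 0.716 to 0.983. The correlation of St14 with Spint1 was 0.81 and with Spint2 0.78.

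Grhl2 was nearest to Epcam (0.832), Zscan10 (0.818) and Sall4 (0.812), of which Epcam is an epithelial adhesion gene and Sall4 and Zscan10 are known from pluripotent cells. Of these 17 groups, only CDH1+ cells had Grhl2 above 1 CPM, and several groups had 0 reads, so counting noise is large here too. Grhl3 was nearest to Extl1 (0.964), Hic2 (0.963) and Stard10 (0.959), and Esrp2 to 9330182L06Rik (0.88), Nipal2 (0.859) and Dsg2 (0.847), the last a desmosomal cadherin. Prss8 was nearest to Cnnm2 (0.928), C630004H02Rik (0.919) and Cadm2 (0.906) and Ovol1 to Shprh (0.945), B4galnt3 (0.943) and Jhdm1d (0.936), both at levels under 1 CPM in these 17 groups, where counting noise is large. Esrp1 was not ranked because it did not pass the filter in every experiment. Across the same groups, Esrp2 had a correlation of 0.29 with Spint1 and of 0.23 with Spint2.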
